A study of Mus musculus with 9 samples.

Results

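The 8 genes Pax2, Pax8, Lhx1, Emx2, Wt1, Gata3, Amhr2 and Osr1, regulators of the Wolffian and Mullerian ducts, were followed across 9 Affymetrix arrays of mouse urogenital sinus. The genes were chosen by name, and every probe set annotated to one of them alone was taken. This gave 11 of the 45101 probe sets and 7 of the 8 genes; Pax2 was not analysed here. The arrays held RNA of C57BL/6 fetuses or newborns whose mothers received bisphenol A (BPA, 20 µg/kg/day), an estrogenic compound used to make plastics, diethylstilbestrol (DES, 0.2 µg/kg/day), an estrogen drug, or corn oil as vehicle (Control). Dosing ran from embryonic day 13 to 16. The sinus was collected on embryonic days 17 and 18 (E17, E18) or at birth (P0), with 1 array for each agent at each age. According to the labels the Wolffian duct, the seminal vesicle, the Mullerian duct, the bladder and the urethra were cut away in both sexes. The labels give neither the sex of the animals on an array nor how many animals or litters it holds, and all p-values therefore rest on differences among single arrays, part of which may be technical.

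The Wolffian duct becomes the epididymis, vas deferens and seminal vesicle under androgens, and the Mullerian duct becomes the oviduct, uterus and upper vagina unless anti-Mullerian hormone (AMH) from the testis removes it. Pax2, Pax8, Lhx1, Gata3, Emx2, Osr1 and Wt1 are transcription factor genes, whereas Amhr2 encodes the type II receptor for AMH. Osr1 marks the early intermediate mesoderm, Pax8 and Lhx1 act in the epithelium of the nephric duct, and Gata3 acts in the same duct and is also expressed in urothelium. Emx2 is needed for the growth of both ducts and of the gonads. Wt1 is expressed in kidney, gonad and mesothelium, and Amhr2 in the mesenchyme around the Mullerian duct and in gonadal somatic cells.

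All values below are probe set signals after quantile normalization, which gives every array the same distribution of signals. Differences are model estimates on the scale log2(signal + 5.46) with their SE. In the GRCm38.p6 assembly Pax8 lies at chr2:24420551-24475599, Lhx1 at chr11:84517975-84525534, Emx2 at chr19:59458690-59465357 and Wt1 at chr2:105126529-105173614. Gata3 lies at chr2:9857078-9887953, Amhr2 at chr15:102445002-102454640 and Osr1 at chr12:9574442-9581500, all protein-coding. Probe sets under the 40th percentile of mean level, a signal of 41.2, were not tested. Of the member probe sets 6 passed that filter, 1 each for Pax8, Emx2, Wt1, Gata3, Amhr2 and Osr1, while 5 did not, among them both of Lhx1. The Amhr2 probe set also passed it without the array on which it was highest.

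The DES E17 and BPA P0 arrays stood apart in ways that bear on duct and gonad genes, by measures chosen after the data had been seen. Xist, the RNA made from the inactive X chromosome of female cells, read 1110 on the DES E17 array and 51.8 to 121 on the other 8 arrays. The Y-linked genes Eif2s3y, Kdm5d and Uty gave signal on all 9 arrays, with 295, 208 and 252 on the DES E17 array against 357 to 593, 277 to 337 and 196 to 323 on the others. On the BPA P0 array 10 of 13 measured markers of gonadal somatic cells were at their highest, and their summed signal was 4774 there against 1129 to 1224 elsewhere. Germ cell markers summed to 611 on that array and to 122 to 161 on the others. Of the markers of the sinus itself, Shh, Foxa1, Trp63, Hoxa13, Hoxd13 and Fgf10 passed the filter, while Hoxb13 read 24.5 to 61.2 and did not.

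Amhr2 was the tested member that varied most between arrays, mostly by its signal on the BPA P0 array. Its tested probe set, 1438967_x_at, read 28.3, 74.4 and 245 on the BPA arrays at E17, E18 and P0, against 58.9, 39 and 50.6 on the DES arrays and 25.7, 33.6 and 62.5 on the Control arrays. The BPA E17 array lay within the Control range, BPA E18 lay just above it, and BPA P0 was 3.3 times the highest other array. As deposited, before scaling, this probe set read 156 on the BPA P0 array and at most 72.4 on the others. Scaling raised the member signals of that array, for example that of Osr1 from 498 to 784. The second probe set, 1457021_x_at, read 3.12, 2.08 and 107 on the BPA arrays, 6.91, 3.18 and 4.02 on the DES arrays, and 3.2, 4.51 and 1.54 on the Control arrays. The third, 1427989_at, read 3.76, 6.64 and 18.5 after BPA, 5.04, 3.11 and 8.16 after DES, and 4.36, 3.06 and 4.02 in Control. All 3 probe sets were highest on the BPA P0 array, where 18.3% of all non-control probe sets had their highest signal. Both dim probe sets read near the pseudocount on the other arrays. The suffix _x marks probe sets whose probes can match other transcripts, and the platform annotation lists no accession for either. Over the 9 arrays the log2 values of the 3 probe sets had Pearson correlations of 0.83 to 0.89 with each other, and without the BPA P0 array of -0.14 to 0.54.

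The limma model estimated a difference for Amhr2 of 1.01 ± 0.45 log2 units between BPA and Control (unadjusted p = 0.0493, adjusted p = 0.635). Without the BPA P0 array it was 0.43 ± 0.42 (adjusted p = 0.876), and without the BPA E17 array 1.64 ± 0.38 (adjusted p = 0.366). Array by array, the BPA signal was above that of its Control by 0.12 at E17, 1.03 at E18 and 1.88 at P0. A test of this change with age gave 0.88 ± 0.29 log2 units per age step in limma (unadjusted p = 0.0127, adjusted p = 0.504). For DES the same test gave -0.66 ± 0.29 per age step (unadjusted p = 0.0448, adjusted p = 0.766). Since the ages were taken as even steps, both estimates depend on the E17 and P0 arrays alone. These include the BPA P0 array for BPA and the DES E17 array for DES. In either test 0% of the 26999 tested probe sets passed the threshold of 0.05, and so did 0 members. Between DES and Control the Amhr2 difference was 0.32 ± 0.45 (adjusted p = 0.931), and it was -0.27 ± 0.41 without the DES E17 array, the one with high Xist. Between P0 and E17 it was 1.27 ± 0.45 (unadjusted p = 0.0185, adjusted p = 0.207), 0.69 ± 0.42 without the BPA P0 array, 0.64 ± 0.38 without the BPA E17 array and 1.86 ± 0.41 without the DES E17 array.

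**Figure D1:**
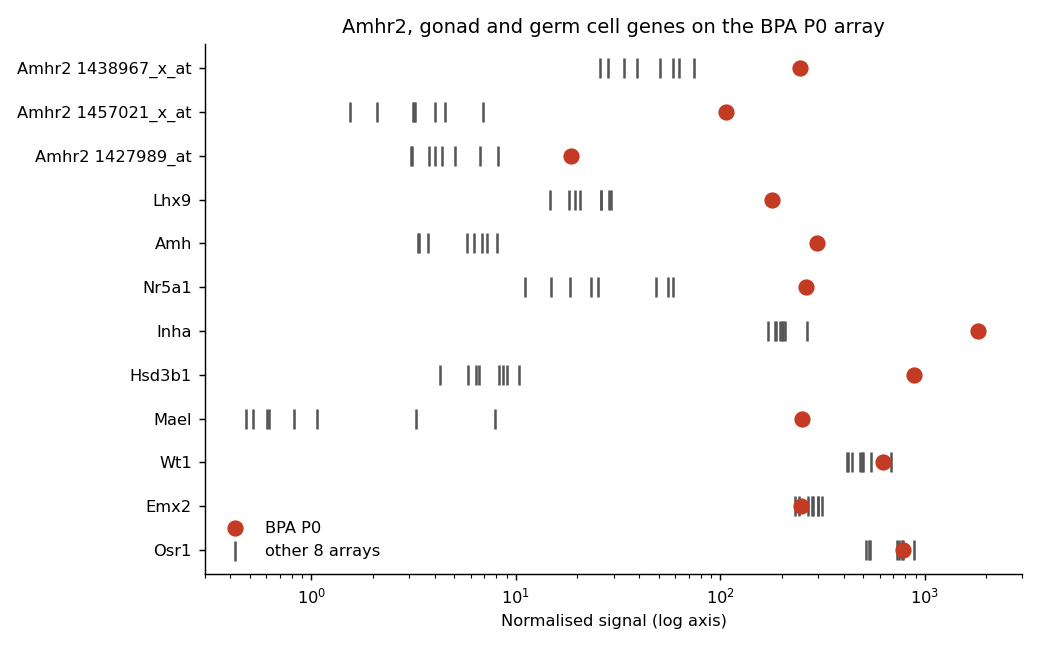
Normalised signal (log axis) of the 3 Amhr2 probe sets, of gonad and germ cell genes picked with their values in view and of 3 other duct regulators. The circle is the BPA P0 array and each tick is 1 of the other 8 arrays. The circle lies to the right of all ticks for Amhr2, Lhx9, Amh, Nr5a1, Inha, Hsd3b1 and Mael, and within the range of the ticks for Wt1, where 1 tick is higher, Emx2 and Osr1.

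The ligand and most gonad genes around Amhr2 had the same array at the top. Amh, the ligand of this receptor, read 296 on the BPA P0 array and 3.33 to 8.1 on the other 8. Nr5a1, the nuclear receptor of steroidogenic tissue, read 263 against 11.1 to 58.9, and Lhx9, a factor needed for gonad formation, 179 against 14.7 to 29.1. Inha, the inhibin alpha subunit, read 1813 against 170 to 266, Hsd3b1, a steroid dehydrogenase, 886 against 4.27 to 10.4, and the germ cell gene Mael 251 against 0.478 to 7.91. The gonadal markers Sox9 (184 against 141 to 267), Star (101 against 37.6 to 121) and Foxl2 (253 against 160 to 285) were not highest there. Nor were the germ cell markers Dppa3 (41.8 against 27.7 to 44.2) and Tex14 (19.1 against 20.5 to 49.4). At least 4 times the signal of every other array was found for 6 of 13 gonadal somatic markers (Amh, Inha, Nr5a1, Cyp17a1, Hsd3b1 and Dmrt1), 3 of 6 germ cell markers (Ddx4, Dazl and Mael) and 0 of 4 adrenal cortex markers, where 0.258% of all genes met that rule. Their part in the Amhr2 signal was not tested. Of 2 members that gonads also express, Wt1 read 621 on this array, 1.27 times the median of the others and below the Control P0 array alone (418 to 684 elsewhere). Emx2 read 248 there, 0.877 times the median of the others (232 to 313).

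The promoters of Amhr2 and Inha are shown, 2 genes that had their highest signal on the array where Nr5a1 did. Other gonadal markers, among them Amh, Hsd3b1 and Cyp17a1, did so too. The half-site bound by the Nr5a1 receptor was searched for in the windows of members and gonadal somatic markers. The 2 windows shown are among those that held it, so their matches are no evidence of a link to Nr5a1. The windows are the 250 bases before 1 annotated transcript start of each gene, from RefSeq (GRCm38.p6, plus strand), Amhr2 at chr15:102445117-102445366 and Inha at chr1:75507359-75507608, written 5′ to 3′ with each match to AGGTCA in capitals. Both windows lie inside the gene's full RefSeq span, which begins at an earlier transcript start: the start used is 365 bases into the span of Amhr2 and 532 bases into that of Inha.
Amhr2: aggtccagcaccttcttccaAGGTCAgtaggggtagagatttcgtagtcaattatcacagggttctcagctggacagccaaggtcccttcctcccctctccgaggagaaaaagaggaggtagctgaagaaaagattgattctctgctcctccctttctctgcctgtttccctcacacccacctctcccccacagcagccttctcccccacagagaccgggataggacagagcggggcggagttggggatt
Inha: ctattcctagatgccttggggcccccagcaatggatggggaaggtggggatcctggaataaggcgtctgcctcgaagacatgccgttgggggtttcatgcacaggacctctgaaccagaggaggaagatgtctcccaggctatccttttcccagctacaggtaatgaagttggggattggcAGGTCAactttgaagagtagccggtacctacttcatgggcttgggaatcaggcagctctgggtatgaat

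The motif AGGTCA was searched on both strands and was found on the plus strand, its first base 230 bases before the transcript start used for Amhr2 and 69 bases before that used for Inha. Of 32851 promoter windows of the same length, 14% held it. Among 8 windows of 6 member genes it was found in that of Amhr2 alone, and among 8 windows of 7 gonadal somatic markers in 2, those of Inha and Cyp11a1. A match describes the letters of these windows only.

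Gata3 read lower after BPA than in Control on every array, with a small difference. Its probe set, 1448886_at, read 457, 482 and 469 on the BPA arrays at E17, E18 and P0, 415, 547 and 491 on the DES arrays, and 549, 674 and 499 on the Control arrays. The BPA and Control ranges did not overlap, as was the case for 5.26% of tested probe sets in the lower and 5.05% in the higher direction. The DES and Control ranges of Gata3 overlapped. Means were 469 ± 12.5 after BPA, 484 ± 66.5 after DES and 574 ± 90.1 in Control (SD, n = 3 arrays each). In limma the difference was -0.28 ± 0.12 for BPA against Control (unadjusted p = 0.0391, adjusted p = 0.611) and -0.24 ± 0.12 for DES against Control (adjusted p = 0.843), so Gata3 did not pass in either. In such bulk tissue fewer cells of a type and less RNA per cell cannot be told apart.

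Urothelium markers, whose cells express Gata3 too, ran the other way. All 7 tested markers were above 0 in BPA against Control with a median of 0.51, where 49% of tested probe sets were above 0 and the median of all was -0.004, and 0 of the 7 passed over all probe sets. The summed signal of the 7 was 5840 to 8074 on the BPA arrays, 5742 to 6996 on the DES arrays and 4738 to 5457 on the Control arrays. Their part in the Gata3 values was not tested.

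**Figure D2:**
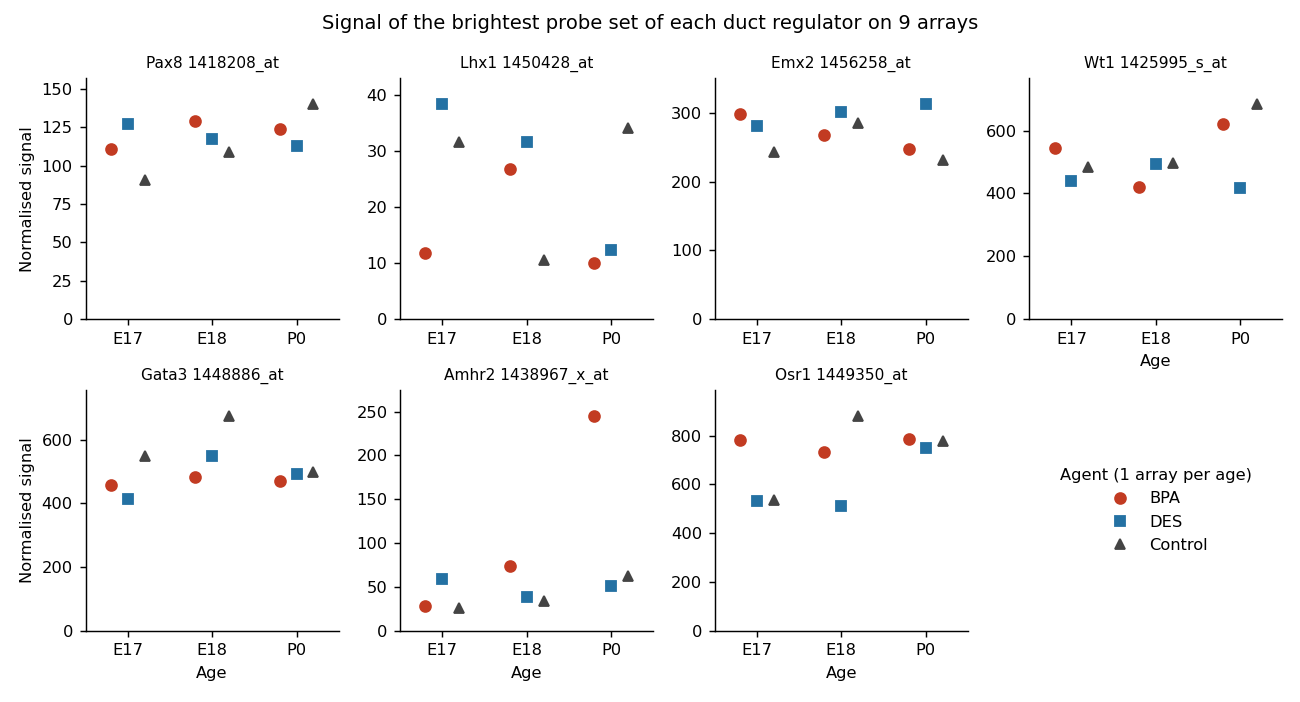
Normalised signal of the brightest probe set of each measured gene at E17, E18 and P0, with BPA as circles, DES as squares and Control as triangles, 1 array each. Amhr2 reaches 245 on the BPA P0 array, Gata3 lies at 457 to 482 after BPA under all Control points, and Lhx1 stays at or under 38.3.

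Osr1 read 781, 733 and 784 on the BPA arrays, 530, 513 and 750 on the DES arrays and 536, 880 and 777 on the Control arrays (1449350_at). The 3 arrays at P0 were close together, from 750 to 784, and the low readings were those of DES at E17 and E18 and of Control at E17. The difference from Control was 0.10 ± 0.16 after BPA (limma adjusted p = 0.924) and -0.28 ± 0.16 after DES (adjusted p = 0.856). The BPA difference was -0.08 without the Control E17 array and -0.06 without the BPA E17 array. The difference of BPA from DES was 0.38 ± 0.16 (unadjusted p = 0.0444, adjusted p = 0.686), and the ranges overlapped.

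Wt1 read 544, 420 and 621 on the BPA arrays, 441, 495 and 418 on the DES arrays and 484, 497 and 684 on the Control arrays (1425995_s_at). The highest 2 readings were Control and BPA at P0, and the DES P0 array was the lowest of all. Differences from Control were -0.07 ± 0.16 after BPA (limma adjusted p = 0.948) and -0.28 ± 0.16 after DES (adjusted p = 0.856), and neither passed the test. Markers of mesothelium, another site of Wt1 expression, summed to 975 to 1022 on the BPA arrays, 691 to 884 on the DES arrays and 654 to 870 on the Control arrays, and their part was not tested.

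Emx2 was the steadiest tested member. It read 299, 268 and 248 on the BPA arrays, 281, 301 and 313 on the DES arrays and 243, 285 and 232 on the Control arrays (1456258_at), a mean of 274 ± 28.6 (SD) over the 9. The DES readings were mostly the higher ones, but 1 Control array, at E18, lay above the lowest of them. The limma difference was 0.10 ± 0.13 for BPA against Control (adjusted p = 0.89) and 0.24 ± 0.13 for DES against Control (adjusted p = 0.856).

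Pax8 read 111, 129 and 124 on the BPA arrays, 127, 117 and 113 on the DES arrays and 90.5, 109 and 140 on the Control arrays (1418208_at). Control held both the lowest and the highest reading, at E17 and P0, with the exposed arrays between them. Both agents were thus above Control at E17 (by 0.28 for BPA and 0.47 for DES) and below it at P0 (by -0.17 and -0.30). The change per age step was -0.23 ± 0.18 for BPA (limma adjusted p = 0.791) and -0.39 ± 0.18 for DES (unadjusted p = 0.0641, adjusted p = 0.766). Over all ages the difference from Control was 0.12 ± 0.18 after BPA (adjusted p = 0.912) and 0.09 ± 0.18 after DES (adjusted p = 0.952). The other Pax8 probe set, 1446561_at, was not tested and did not follow it (Pearson r = -0.02 over the 9 arrays): it read 18.4, 10.9 and 19.4 after BPA, 6.9, 3.44 and 5.55 after DES, and 15.4, 5.69 and 13.6 in Control.

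Lhx1 stayed under the filter on both probe sets, which share 1 listed accession. The brighter, 1450428_at, read 11.8, 26.8 and 9.94 on the BPA arrays, 38.3, 31.5 and 12.3 on the DES arrays and 31.6, 10.6 and 34 on the Control arrays, with overlapping ranges. The dimmer, 1421951_at, read 2.29 to 15.2 over the 9 arrays, and the 2 had a correlation of 0.47. No detection calls were used, so such readings do not show whether Lhx1 RNA was present.

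Across the 6 tested members, 0 passed the threshold in any comparison with limma. For BPA against Control 2 had an unadjusted limma p under 0.05 (Gata3 and Amhr2), for DES against Control 0, for BPA against DES 1 (Osr1). For P0 against E17 1 did (Amhr2), and for E18 against E17 and P0 against E18 0 each. Of the 26999 tested probe sets 2118, 1520 and 1946 did so in BPA against Control, DES against Control and BPA against DES. In P0 against E17, E18 against E17 and P0 against E18 the numbers were 4681, 743 and 3638. After adjustment 0% of 26999 probe sets passed in the 3 agent comparisons, in E18 against E17 and in P0 against E18. In P0 against E17 0.0926% passed. Ranges that do not overlap were found for 1 of 11 member probe sets in BPA against Control (Gata3), for 1 in BPA against DES (1446561_at of Pax8, higher after BPA) and for 0 in the other comparisons. The shares of tested probe sets higher and lower without overlap were 5.32% and 6.57% in BPA against DES and 5.87% and 5.04% in DES against Control. They were 9.94% and 9.92% in P0 against E17, 5.17% and 4.26% in E18 against E17, and 6.99% and 7.34% in P0 against E18. The members' median difference was 0.10 in BPA against Control, -0.08 in DES against Control and 0.20 in P0 against E17, where the medians of all tested probe sets were -0.004, 0.003 and -0.006. Between P0 and E17 the other members differed by -0.06 ± 0.13 (Emx2), 0.05 ± 0.12 (Gata3), 0.20 ± 0.18 (Pax8), 0.20 ± 0.16 (Wt1) and 0.35 ± 0.16 (Osr1), with limma adjusted p from 0.312 to 0.867. The agent comparisons share arrays (the Control arrays, or those of the agent), so their values are not independent of each other.

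**Figure D3:**
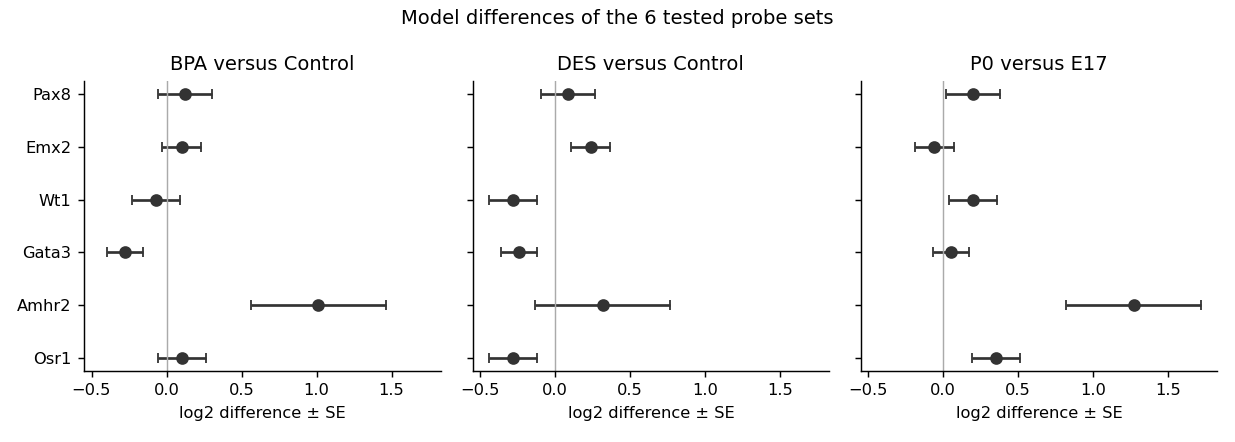
Model differences (log2 units, points) with SE (bars) of the 6 tested probe sets in BPA against Control, DES against Control and P0 against E17. Amhr2 has the widest bars (SE 0.45) and the highest points for BPA (1.01) and P0 (1.27), and 0 of the points pass the threshold.

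Other genes of duct development, 26 listed and 23 tested, were mostly lower after BPA without passing. In BPA against Control 19 of 23 were below 0 with a median of -0.10, where 51% of tested probe sets were below 0, and 0 were called over all probe sets (2 with an unadjusted p under 0.05). Etv4 and Etv5, ETS factors that act downstream of FGF and RET signals in the ureteric bud, were among the most different at -0.82 ± 0.24 and -0.38 ± 0.13 (limma adjusted p = 0.459 and 0.497). Etv4 read 104, 90.1 and 40.5 on the BPA arrays, 96.3, 102 and 71.1 on the DES arrays and 133, 131 and 133 on the Control arrays. Its 3 Control readings were nearly equal and above all 6 others. This follows in part from naming Etv4 for its large differences, and both agents were set against the same Control arrays. Gdnf, the ligand of the Ret receptor, and Emx1, the paralog of Emx2, had differences of -0.61 ± 0.47 and -0.40 ± 0.28 (adjusted p = 0.798 and 0.777). Gdnf read 127 on the BPA P0 array, its highest reading.

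In DES against Control the duct genes were divided, with 12 above 0 and 11 below and a median of 0.02. Hoxd9, a posterior homeobox gene, had a difference of -0.67 ± 0.14, Etv4 of -0.55 ± 0.24, Emx1 of 0.39 ± 0.28 and Dach1 of 0.39 ± 0.15 (limma adjusted p = 0.843 to 0.86), and 0 of 23 passed while 5 had an unadjusted p under 0.05. Hoxd9 read 383, 358 and 725 on the BPA arrays, 263, 286 and 400 on the DES arrays and 339, 472 and 767 on the Control arrays. At each age the DES array was the lowest of the 3, which follows in part from naming Hoxd9 for its large difference. Between P0 and E17, 11 duct genes were above 0 and 12 below, and 0 passed: Hoxd9 had a difference of 0.89 ± 0.14 (adjusted p = 0.0571), Gdnf of 1.29 ± 0.47 (adjusted p = 0.216), Calb1, a calcium-binding protein of the nephric duct, of -0.71 ± 0.20 (adjusted p = 0.156) and Etv4 of -0.55 ± 0.24 (adjusted p = 0.273).

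**Figure D4:**
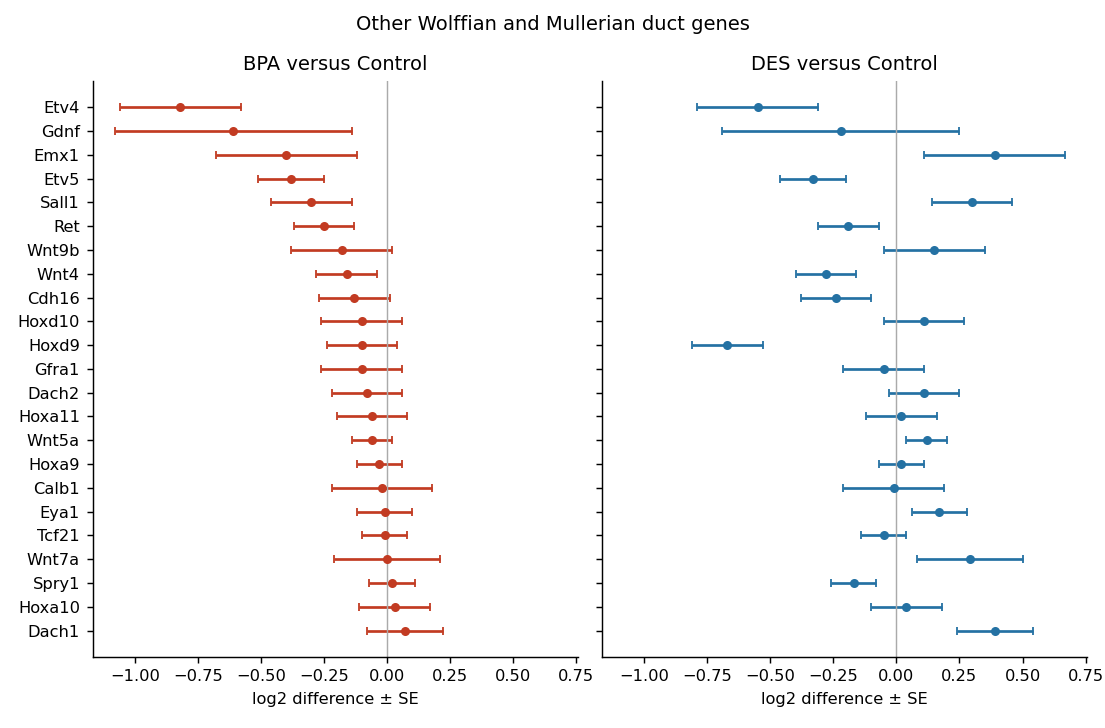
Differences from Control (log2 units, points) with SE (bars) of 23 other duct genes, BPA on the left and DES on the right, ordered by the BPA value. After BPA 19 points lie below 0, led by Etv4 at -0.82, and after DES 11 do, with Hoxd9 at -0.67.

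The AMH pathway list holds the ligand, type I receptors (Acvr1, Bmpr1a, Bmpr1b), SMADs, Ctnnb1 and target genes. The ligand gene Amh and Smad9 lay under the filter and were not tested, and Amh was highest on the BPA P0 array. Of the 12 tested genes of this list 10 were below 0 in BPA against Control (median -0.14), where 51% of tested probe sets were. In DES against Control 9 were (median -0.03), where 49.2% of tested probe sets were, and 0 passed in either comparison. Wif1, a secreted Wnt inhibitor, had differences of -0.40 ± 0.17 after BPA and -0.41 ± 0.17 after DES (limma adjusted p = 0.604 and 0.843), and Sp7 (osterix), a transcription factor that AMH induces in Mullerian mesenchyme, of 0.48 ± 0.21 and 0.36 ± 0.21 (adjusted p = 0.636 and 0.856). Id1 and Id2, targets of BMP-type SMAD signals, had differences after BPA of -0.23 ± 0.09 and -0.21 ± 0.10 (adjusted p = 0.59 and 0.68).

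Genes of the ducts' later derivatives were mostly dim. The arrays end at birth and none held duct tissue for comparison. Low readings of such genes therefore do not show how complete the dissection was. Of 10 measured genes of seminal vesicle and epididymis, 7 stayed at or under the filter signal on all 9 arrays and 2 were tested. Svs5, a seminal vesicle secretory gene, read 391, 433 and 399 on the BPA arrays, 358, 359 and 377 on the DES arrays and 453, 307 and 353 on the Control arrays, while Svs2, Svs4 and Svs6 were under the filter. Cdh16, a cadherin of kidney and duct epithelium, read 373 to 676 and Calb1 145 to 366 over the 9 arrays. Of 8 measured genes of kidney and ureter 5 were tested, 2 above and 3 below 0 in BPA against Control, and 0 passed. Whether these readings come from remaining duct cells or from the sinus itself was not tested.

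The genes whose pattern over the 9 arrays was most like each member's were ranked by Pearson's r among 13398 other tested genes. The ranking is a description only, since composition and RNA quality may differ between arrays, and their part was not tested. For Gata3 they were Gna11 (0.922), Aldh1a3, a retinaldehyde dehydrogenase (0.92), and Dpf1 (0.885), and for Wt1 they were Lmna (0.952), Ppp2r2d (0.952) and Tpst2 (0.948). Osr1 was most like Cd9 (0.938), Zhx1 (0.927) and Cby3 (0.91), Emx2 like Ssbp1 (0.927), Clmp (0.92) and Smim22 (0.915), and Pax8 like Slc11a1 (0.936), Sbno2 (0.929) and Lipt2 (0.915). Amhr2 was most like Rarres1 (0.97), Clec4n (0.963) and Ikbip (0.959), and without the BPA P0 array these were at 0.893, 0.857 and 0.885. Amh, Nr5a1, Lhx9, Hsd3b1 and Mael, also highest on the BPA P0 array, lay under the filter and were not ranked, while Inha was. Among the members themselves r ran from -0.60 (Emx2 and Wt1) to 0.58 (Pax8 and Amhr2).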

How the data were processed

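The authors deposited 1 intensity per probe set and array on a linear scale; MAS5 is named in the submitters' processing notes, with no version or scaling target given in the sources used here. The deposited intensities were not on a common level: means trimmed by 2% at each end ran from 157 to 277. They were quantile normalized between arrays, and log2(signal + 5.46) was taken, the pseudocount being the 10th percentile of normalised values, which understates changes of dim genes. The 64 control probe sets were left out of tests. Of 45101 probe sets, 34958 had a single gene symbol in the platform annotation, and the 7 measured members matched RefSeq by gene identifier. Tests used limma 3.58.1 in R 4.3.3 with age and agent as factors on all 9 arrays (4 residual and 5.77 prior degrees of freedom), eBayes with an intensity trend and Benjamini-Hochberg adjustment over 26999 probe sets; those with a mean log2 value under the 40th percentile (5.54) were left out. A linear age term per agent (3 residual degrees of freedom) tested change with age. With even steps the estimated change depends on the E17 and P0 arrays alone. Fits were run on simulated data with planted BPA differences, as a check of the size and sign of the estimates. How often such differences would be called is not reported here. Arrays of 1 age were compared with each other through the age factor, which pairs agents by age.

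Genes of a list stand for their brightest single-symbol probe set. Named list genes were those with the largest absolute differences (up to 4 per list) or called, and 3 genes most like each member; genes outside that rule (the gonad and germ cell genes on the BPA P0 array, Xist and the Y-linked genes, Cdh16, the Svs genes) were picked with their values in view. Members and lists were chosen with earlier results of these data known. Precision is limited by how few arrays there are, and signals of different probe sets were not set against each other. Alternatives were the deposited values, trimmed-mean scaling, pseudocounts of 1 and 32, no filter, 1 probe set per gene, no trend, no age term, each array left out, and 2 arrays left out together.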

Additional observations from a re-analysis of the deposited data

Results flagged for a closer look

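One member probe set stood out because the agents ran opposite ways at every age. Pax8 1446561_at was above Control after BPA by 0.20, 0.55 and 0.38 log2 units at E17, E18 and P0, and after DES differed from Control by -0.75, -0.33 and -0.80. The mean BPA minus DES difference was 1.0 log2 unit, and the difference was not tested, since the probe set lay under the filter with signals of 3.44 to 19.4. Ranges that do not overlap in this direction were found for 5.32% of tested probe sets, both agents were set against the same Control arrays, and the tested Pax8 probe set showed 0.03 ± 0.18 for BPA against DES.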

How the results depend on the processing

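Of the tested members 0 were called in any of 18 alternatives for BPA or DES against Control and 17 for P0 against E17. The lowest limma adjusted p among these was 0.0532, for Amhr2 in P0 against E17 without the DES P0 array (1.79 ± 0.45). In that fit 1601 of 26999 probe sets were called. On the deposited values, unscaled, the median over the whole table was -0.24 for BPA against Control, 0.08 for DES against Control and -0.29 for P0 against E17. On that scale BPA against Control gave -0.11 for Pax8, -0.15 for Emx2 and -0.17 for Osr1, and P0 against E17 gave -0.11 for Pax8, -0.09 for Wt1 and -0.24 for Gata3, each with the sign turned. The Gata3 difference for BPA kept its sign in 18 of 18 alternatives (-0.54 to -0.19, limma adjusted p = 0.446 to 0.911), as did that of Amhr2 (0.43 to 1.64, adjusted p = 0.366 to 0.91). The alternatives reuse the same arrays. At every age the BPA array read below its Control for Gata3 and above it for Amhr2. Leaving out arrays therefore had little room to turn either sign.

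Leaving out 1 array at a time moved BPA against Control over -0.02 to 0.28 for Pax8, 0 to 0.19 for Emx2, -0.17 to 0.08 for Wt1 and -0.08 to 0.31 for Osr1. It moved DES against Control over -0.06 to 0.25 for Pax8 and -0.27 to 0.84 for Amhr2, and P0 against E17 over -0.15 to 0.05 for Emx2 and -0.04 to 0.15 for Gata3. With no change of sign, DES against Control ran over -0.46 to -0.09 for Wt1, -0.46 to -0.07 for Osr1, -0.34 to -0.16 for Gata3 and 0.14 to 0.32 for Emx2. P0 against E17 likewise ran over 0.08 to 0.40 for Wt1, 0.03 to 0.34 for Pax8, 0.17 to 0.50 for Osr1 and 0.64 to 1.86 for Amhr2. With both the DES E17 and BPA P0 arrays left out, DES against Control was -0.08 for Pax8 and -0.15 for Amhr2, and P0 against E17 was -0.12 for Gata3. Without the BPA P0 array 2 of 7 gonadal somatic markers were above 0 in BPA against Control, and without both arrays 3, against 7 of 7 with all arrays. In the same 2 fits the duct list had 17 and 18 of 23 below 0, against 19. Over all fits without 1 array that count ran from 16 to 20.

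Counts of probe sets called over the whole table moved more. Deposited values gave 34 for BPA against Control, 38 for BPA against DES, 392 for P0 against E17 (25 with scaling), 3 for E18 against E17 and 7 for P0 against E18. With 1 probe set per gene the counts were 2 for BPA against Control and 83 for P0 against E17, where a pseudocount of 32 gave 62, no filter 7, no trend 0 and the fit lacking both DES E17 and BPA P0 gave 0. Leaving out 1 array gave 0 to 8 for BPA against Control, 0 to 5 for BPA against DES, 0 to 1 for E18 against E17, 0 to 1601 for P0 against E17 and 0 to 657 for P0 against E18, both maxima without the DES P0 array; P0 against E17 gave 0 without the DES E17 or the Control E17 array. The cause of these moves was not tested. No array depth exists, and signals near the pseudocount limit Lhx1 and the dim Amhr2 and Pax8 probe sets.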
